A study of Drosophila melanogaster with 2 samples.

Results

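Genes of the blood cells (hemocytes) and of the melanization reaction of Drosophila melanogaster were examined in larvae that carried GFP-tagged dASF/SF2. The 10 genes were PPO1, PPO2 and PPO3 (prophenoloxidases), Hml, NimC1, eater and Sr-CI (plasmatocyte genes), srp (a transcription factor), and MP1 and Spn27A (a serum protease and a serum serpin). They were found by the current symbol of each probe that the platform annotation pairs with a single gene. Of the 15744 features in the table, which name 12236 genes, 9 probes belonged to these genes, 1 probe to each of 9 genes, and no probe was named for MP1. Values were present on both arrays for 7 genes and on array 2 alone for 2, PPO3 and NimC1.

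Drosophila larvae have 3 main hemocyte types. Plasmatocytes engulf microbes and dead cells, crystal cells store prophenoloxidase, and lamellocytes wrap objects too large to be engulfed. In melanization a chain of serum proteases cuts prophenoloxidase to its active form, which oxidises phenols into melanin at wounds and around parasites, and serpins hold these proteases in check.

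Each of the 2 arrays set polyA RNA of larvae from the cross GMR X GFP-dASF/SF2 against RNA of larvae from the cross GMR X GFP-NLS, the control. The control RNA carried Cy3 on array 1 and Cy5 on array 2, so the dyes were swapped. Both crosses share GMR, an enhancer used to drive expression in the developing eye, and both carry a GFP transgene. The question set by the design was whether more dASF/SF2, an SR protein that acts in splicing, changes gene expression broadly. The labels used here do not give the larval stage, the sex, the number of larvae, the tissue, or whether the arrays hold separate RNA extracts. The spread between the arrays, and every p-value from it, may therefore be technical.

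A value is the log ratio of both dyes on 1 array. Neither the log base nor the numerator dye is stated in the sources used here. Array 2 was multiplied by -1 so that both arrays run one way, and the median of each array was then set to 0. A positive value means more RNA in dASF/SF2 larvae if the ratio is Cy5 over Cy3, and less if it is Cy3 over Cy5, so values are given as lying on the positive or the negative side. All of this holds only if the deposited values run by dye. The other reading, with values that run by genotype from the start, is given further on. The labels name GMR X GFP-dASF/SF2 as the source of channel 2 on both arrays, whichever dye it carried. No signal levels were used, so the brightness behind a ratio is unknown, and the hemocyte content of the larvae cannot be checked from absolute levels. In RNA of whole samples, a change in the number of cells of a type and a change of RNA per cell cannot be told apart.

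The prophenoloxidase genes PPO1 and PPO2, both made in crystal cells, had the highest means among the 7 genes measured on both arrays, and both lay on the positive side on each array. PPO1 (CG42639), whose classic mutant allele is Black cells, was deposited at 0.741 on array 1 and -0.165 on array 2. After turning and centring these became 0.739 and 0.175. The gene thus lay on 1 side on both arrays, but far from the median only on array 1. Its mean was 0.457 ± 0.399 (SD, n = 2), and its spread was larger than that of 93.8% of the 10912 probes tested.

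PPO2 (CG8193), the paralog stored as crystals in crystal cells, gave close values on both arrays. It was deposited at 0.368 and -0.319, which became 0.366 on array 1 and 0.329 on array 2. The mean was 0.347 ± 0.0262 (SD, n = 2), and its spread was well below the median spread of all probes, 0.107. By their means PPO1 stood at percentile 98.9 and PPO2 at percentile 96.9 of all probes tested.

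Neither gene passed the test across all probes (limma, two-sided, Benjamini-Hochberg adjustment). PPO1 had an adjusted p of 0.630 by limma (unadjusted p = 0.0292), with a 95% interval of 0.0670 to 0.847. For PPO2 limma gave an adjusted p of 0.516 (unadjusted p = 0.0133) and an interval of 0.107 to 0.588. At an unadjusted p under 0.05, 6.69% of all probes were found, 4.76% on the positive and 1.93% on the negative side, and 2 of the 7 members, PPO1 and PPO2. At an adjusted p under 0.05 limma called 0 of the 10912 probes, or 0%. In size, the PPO1 mean corresponds to 1.37-fold if the log base is 2 and 2.86-fold if it is 10, and that of PPO2 to 1.27-fold or 2.23-fold.

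PPO3 (CG42640), the prophenoloxidase of lamellocytes, had a value on array 2 alone. It was deposited at 0.317 and became -0.307, on the side opposite to PPO1 and PPO2 on the same array. With no value on array 1 it has no replicate and no test. Among the 2324 probes of named genes with a value on array 2 alone, 11.4% lay at or below PPO3. The median of those probes was -0.063, so they lay lower than the array as a whole. The 3 prophenoloxidases therefore did not share a side on array 2, where their mean was 0.0657, against 0.252 for PPO1 and PPO2 alone. Probe sequences were not used here, so cross-hybridisation between these paralogs was not tested.

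**Figure D1:**
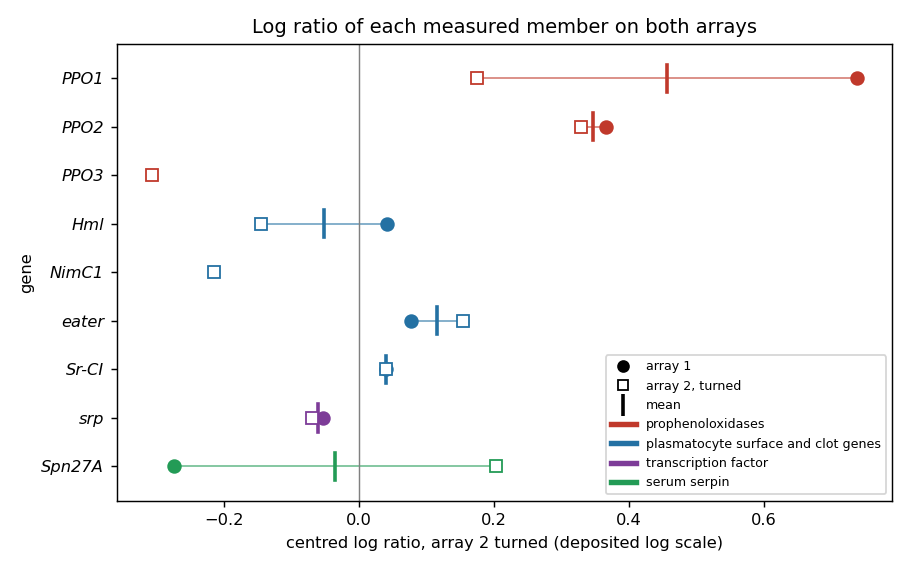
Centred log ratio (x axis, deposited log scale, array 2 turned) of each measured member (y axis), with array 1 as filled circles, array 2 as open squares and a bar at the mean of both. PPO1 and PPO2 lie to the right of 0 on both arrays, PPO3 and NimC1 have a value on array 2 alone, and Hml and Spn27A have 1 array on each side of 0.

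By their means, the plasmatocyte genes measured on both arrays lay close to the median. eater (CG6124), a phagocytic receptor with EGF-like repeats, was deposited at 0.079 and -0.144, which became 0.077 on array 1 and 0.154 on array 2. Both values were positive, with a mean of 0.116 ± 0.0544 (SD, n = 2) and a 95% interval of -0.128 to 0.359, which includes 0. The gene stood at percentile 79.3 of all probes.

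Sr-CI (CG4099), a class C scavenger receptor that binds bacteria, was deposited at 0.042 and -0.03. Both arrays gave 0.040 after turning and centring, so the mean was 0.040, with an interval of -0.200 to 0.280. This gene lay within the middle of the distribution, at percentile 61.9.

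Hml (CG7002) encodes hemolectin, a clotting protein secreted by most plasmatocytes and a standard marker of them. Deposited at 0.043 and 0.155, it became 0.041 on array 1 and -0.145 on array 2, on opposite sides. Its mean was -0.052 ± 0.132 (SD, n = 2), with an interval of -0.313 to 0.209. NimC1 (CG8942), the phagocytic receptor known as the P1 antigen, had a value on array 2 alone. It was deposited at 0.225 and became -0.215, and 21.6% of the probes of named genes measured on array 2 alone lay at or below it.

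srp (CG3992), the GATA factor that hemocyte precursors require and that also acts in fat body and endoderm, lay slightly on the negative side on both arrays. It was deposited at -0.051 and 0.08, which became -0.053 on array 1 and -0.070 on array 2. The mean was -0.0615 ± 0.0120 (SD, n = 2), with an interval of -0.302 to 0.179.

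Spn27A (CG11331) is a serpin of the hemolymph that holds back the activation of prophenoloxidase. It was deposited at -0.272 on array 1 and -0.193 on array 2, the same sign on both, so turning put it on opposite sides, at -0.274 and 0.203. The mean of -0.0355 ± 0.337 (SD, n = 2) hides this difference between the arrays, which was wider than for 90.9% of all probes. Its interval was -0.389 to 0.318. Adjusted p-values by limma for Hml, eater, Sr-CI, srp and Spn27A were all between 0.998 and 0.999.

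Over the 7 genes measured on both arrays, 4 were positive on both (PPO1, PPO2, eater, Sr-CI), 1 was negative on both (srp) and 2 were on opposite sides (Hml, Spn27A). Among all 10912 probes the positive side held 26.1% on both arrays and the negative side 23.1%. The median of the 7 genes was 0.040, against 0.004 over all 9266 genes measured on both arrays. It was 0.041 on array 1 and 0.154 on array 2.

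**Figure D2:**
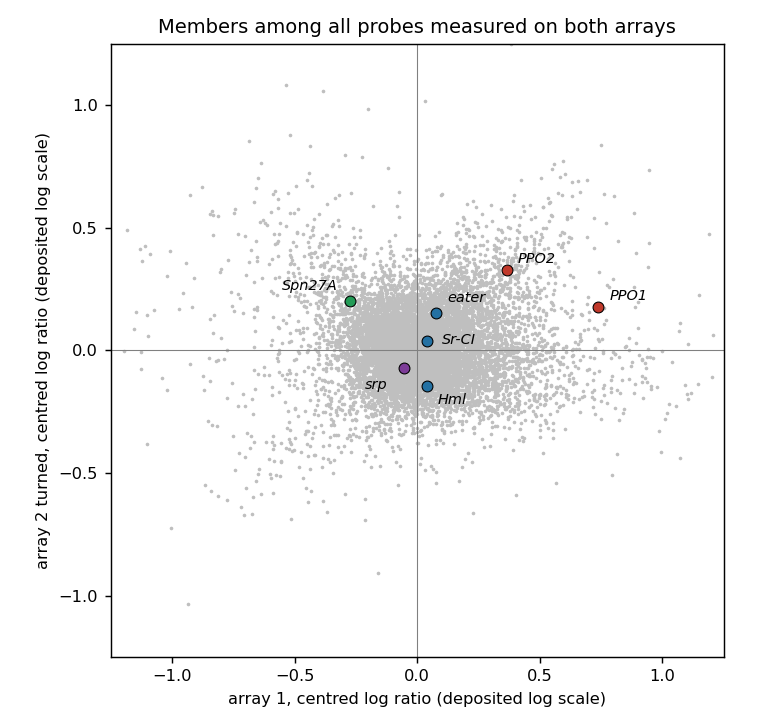
Centred log ratio on array 1 (x axis) against that on array 2 after turning (y axis), both on the deposited log scale, for all probes measured on both arrays (grey) and the 7 members (coloured). PPO1 and PPO2 lie in the upper right, the other 5 members lie nearer to the crowded centre, and 31 of the 10912 probes fall outside the axes.

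With array 2 turned, the class means differed mainly by PPO1 and PPO2, the prophenoloxidase genes measured on both arrays. PPO1 and PPO2 had a class mean of 0.552 on array 1 and 0.252 on array 2. Hml, eater and Sr-CI had a class mean of 0.0527 on array 1 and 0.0163 on array 2. The mean of PPO1 and PPO2 thus lay above that of the plasmatocyte genes on both arrays, by 0.500 and 0.236, a mean difference of 0.368 ± 0.187 (SD, n = 2). Adding the genes measured on array 2 alone, PPO3 and NimC1, brought the difference on array 2 to 0.107. Probes of named genes measured on array 2 alone had a median of -0.063, so this value mixes unlike probes. Against Spn27A, the one serum cascade member with a value, the difference was 0.827 on array 1 but 0.049 on array 2 (0.438 ± 0.550, SD, n = 2). The second contrast was smaller than its spread between the arrays. No p-value was computed for these differences, since the genes were chosen with earlier results of these data known.

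The reading in which the deposited values already run by genotype left array 2 unturned and changed which genes stood out. PPO2 then had 0.366 on array 1 and -0.329 on array 2, and its mean was 0.0185. PPO1 had 0.739 and -0.175, with a mean of 0.282 ± 0.646 (SD, n = 2). Each of them thus had 1 array on either side of 0 in this reading. Their difference from the plasmatocyte genes changed sign between the arrays as well, at 0.500 and -0.236 (0.132 ± 0.520, SD, n = 2). Spn27A instead lay on the negative side on both, at -0.274 and -0.203, with a mean of -0.238 ± 0.0502 (SD, n = 2). It did not pass the test either (limma, adjusted p = 0.992, unadjusted p = 0.0550). Hml was positive on both arrays, at 0.041 and 0.145, and no other member shared a side. In this reading the positive side held 23.9% of all probes on both arrays and the negative side 26.4%. Over all probes the turned arrays correlated with r = 0.0244, which describes 10912 probes on shared arrays, and the unturned ones with r = -0.0244. The labels place RNA of dASF/SF2 larvae in channel 2 on both arrays, although the dyes were swapped, so they name the channels by genotype. They do not say which channel is the numerator or how the ratios were formed. Neither reading is therefore settled by the sources used here.

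**Figure D3:**
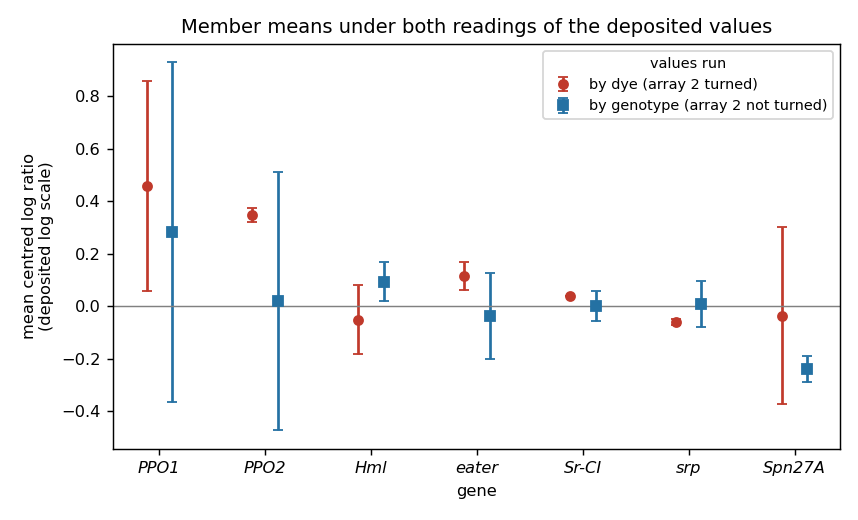
Mean centred log ratio (y axis, deposited log scale) of the 7 members (x axis) with array 2 turned (circles) and not turned (squares), where bars show the SD over 2 arrays. The PPO2 bar is short with array 2 turned and spans 0 widely without turning, and the Spn27A bar does the reverse.

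Other genes of these cells and of the cascade were taken from 6 lists of 55 genes, chosen like the members with earlier results known. Of these, 49 had a named probe and 40 were measured on both arrays, with 10 positive on both, 6 negative on both and 24 on opposite sides. At gene level the positive side held 25.4% of all 9266 genes on both arrays and the negative side 23.5%. The remaining 4733 genes were on opposite sides. The limma fit on gene means called 0 of the 40 genes at an adjusted p under 0.05. At an unadjusted p under 0.05 it found 2 of them, ItgaPS4 and SPE, against 6.90% of all genes.

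Transcription factors of the crystal cell lineage did not lie on the positive side on both arrays as PPO1 and PPO2 did. The Runx factor gene lz, required to form crystal cells, had 0.076 on array 1 and -0.299 on array 2. The zinc finger gene peb had 0.075 and -0.114. Both genes were near the median on array 1 and on the negative side on array 2, and neither passed the test (limma, adjusted p = 0.999 for each).

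Lamellocyte genes were spread over both sides. ItgaPS4, an integrin alpha subunit gene used as a lamellocyte marker, had -1.10 on array 1 and -0.38 on array 2. It lay on the negative side on both arrays, with a mean of -0.742 ± 0.511 (SD, n = 2) that was the lowest of the 40 genes and number 16 from the bottom of all probes. It did not pass the test (limma, adjusted p = 0.473). msn, a kinase gene whose reporters mark lamellocytes, was positive on both at 0.222 and 0.167. The integrin beta subunit gene mys had 0.148 and -0.093. atilla, the classic lamellocyte surface marker, had no value on either array.

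By their means over both arrays, the other plasmatocyte genes lay as close to the median as the members did. On single arrays some lay further out, such as NimB4 (0.235) and drpr (-0.193) on array 2. All 14 had a probe and 9 were measured on both arrays, with 2 positive on both, 1 negative on both and 6 on opposite sides. Over all 9266 genes measured on both arrays, 4733 were on opposite sides. Their median was 0.025. The highest means were those of the Nimrod genes NimB1 (0.115), NimB4 (0.065) and NimB5 (0.0505), and only NimB1 of these had the same sign on both arrays. The lowest belonged to the scavenger receptor gene crq (-0.0955), NimB2 (-0.09) and the engulfment receptor gene drpr (-0.076). He, which encodes the hemocyte surface protein Hemese, had 0.071 and 0.02, and the peroxidasin gene Pxn had -0.17 and 0.163. Another Pxn probe, with a value on array 2 alone, had -0.158 there, on the opposite side. Array 2 alone gave values for NimC4 (-0.231), NimA (-0.037) and the paralogs of Sr-CI. Of these, Sr-CIII had 0.254, Sr-CII 0.042 and Sr-CIV -0.011.

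Among regulators of blood cell formation, the highest means rested on array 1. Of 14 genes, 12 had a probe and 11 were measured on both arrays. Of these 11, 2 were positive on both, 2 negative on both and 7 on opposite sides. Over all 9266 genes measured on both arrays, 4733 were on opposite sides. The transcription factor gene zfh1 had 0.675 on array 1 and -0.022 on array 2, kn had 0.723 and -0.161, and the PDGF- and VEGF-related ligand gene Pvf1 had 0.483 and -0.006. Pvr, the receptor of that ligand, was positive on both at 0.32 and 0.087. The lowest means were those of gcm2 (-0.13), a plasmatocyte fate gene, the JAK/STAT receptor gene dome (-0.0925) and Stat92E (-0.0505), which had 0.132 on array 1 and -0.233 on array 2. ush, which encodes a partner of GATA factors such as srp, had 0.501 and -0.182. With array 2 unturned, kn (0.723 and 0.161) and ush (0.501 and 0.182) were positive on both, with an unadjusted p of 0.0465 and 0.0394 and an adjusted p of 0.992 and 0.981 by limma.

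The melanization cascade list holds proteases, serpins and yellow genes, and 10 of its genes were measured on both arrays. Of these, 5 kept to the positive side, 1 kept to the negative side and 4 changed side, with a median of 0.106. Of all 9266 genes measured on both arrays, 25.4% kept to the positive side and 23.5% to the negative side, while 4733 genes changed side. Whether the list departs from these shares was not tested. SPE, the protease that processes the Toll ligand Spatzle, had 0.63 on array 1 and 0.085 on array 2, a mean of 0.357 ± 0.385 (SD, n = 2). Sp7, a protease that acts in melanization, had 0.098 and 0.282. Spn28Dc, a serpin gene, had a mean of 0.123, and so did yellow-f, which encodes a dopachrome conversion enzyme of melanin synthesis. The lowest means were those of the serpin genes nec (-0.073) and Spn88Ea (-0.049) and of Hayan (-0.0715), a protease that activates prophenoloxidase. No gene of this group passed the test, with SPE at an adjusted p of 0.776 in limma. On array 2 alone, the protease gene psh had -0.472 and yellow-f2 had 0.16.

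**Figure D4:**
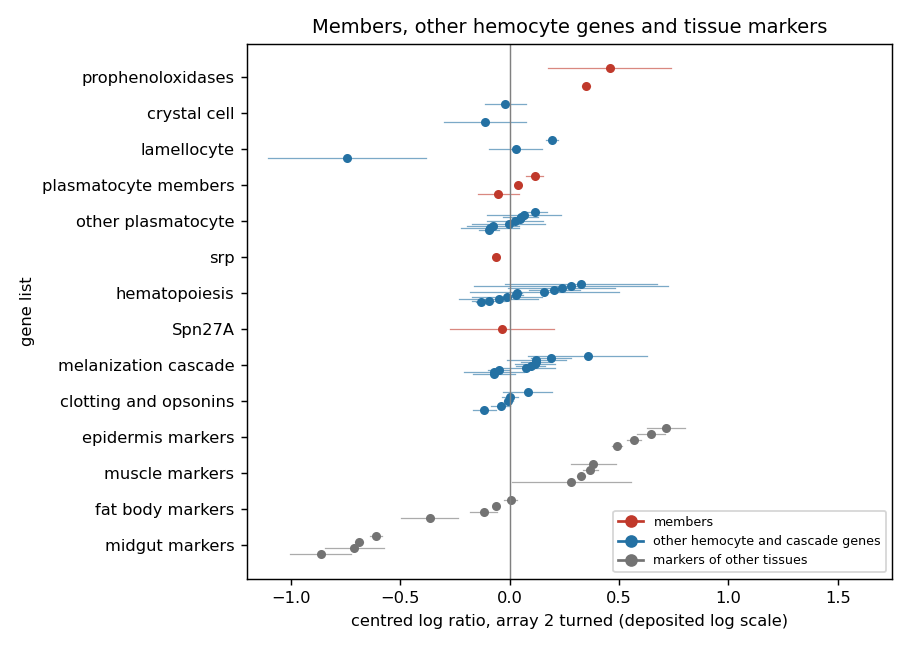
Mean centred log ratio (x axis, deposited log scale, array 2 turned) of each gene measured on both arrays by list (y axis), where each thin line joins the values of array 1 and array 2. PPO2 lies in the range of the muscle markers and PPO1 between these and the epidermis markers, most other hemocyte and cascade genes straddle 0, and ItgaPS4 lies in the range of the midgut markers.

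Markers of epidermis and midgut measured on both arrays lay far from the median on each. Of the fat body markers, Fbp1 and Lsp2 lay close to it by their means. Like the other lists, the marker lists were chosen with earlier results of these data known, so their shared sides are no independent finding. Of all 9266 genes measured on both arrays, 25.4% kept to the positive side and 23.5% to the negative side. Of 5 epidermis genes, 4 were measured on both arrays, and all of these 4 were positive on both, with means from 0.489 to 0.717. The cuticle gene Cpr49Ae had a value on array 2 alone, -0.178, on the negative side. The cuticle genes Lcp65Aa and Lcp65Ac had 0.645 and 0.569. Among the others, ple (0.804 and 0.63) and Ddc (0.489 over 2 probes) supply catecholamines for cuticle tanning and for melanin. The 4 measured muscle genes of 6 (Tm2, Mlp84B, Mlc2 and up) were also positive on both, with means from 0.282 to 0.382, which is the range of PPO2. The arrays differed for up, at 0.555 and 0.01. The 4 midgut protease genes (epsilonTry, betaTry, Jon65Aiii and Jon25Bii) were negative on both, with means from -0.864 to -0.612. Of the 6 fat body genes 4 were measured, and 3 were negative on both, apolpp (-0.365), Fbp2 (-0.118) and Fbp1 (-0.06), while Lsp2 had 0.0045. PPO1 and PPO2 thus lay on the side of the epidermis and muscle markers that were measured on both arrays. The part of tissue proportions in the values of PPO1 and PPO2 was not tested. None of these markers passed the test, with a lowest adjusted p of 0.419 by limma over all probes. With array 2 unturned, the epidermis and midgut genes had 1 array on each side of 0, as PPO1 and PPO2 did.

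Missing values limited the group. On array 1, 25.2% of the probes of named genes had no value, against 8.22% on array 2, and 17.7% had a value on array 2 alone. Among the members 2 of 9 probes had a value on array 2 alone. No reason for the missing values is given in the sources used here.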

How the data were processed

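Two-colour arrays of polyA RNA were compared for 2 samples, which form 1 group of 2 arrays in a dye swap, per the labels. The authors deposited 1 score per probe and array, a log ratio of both channels whose base, numerator, background correction and normalization the sources used here do not state. Missing were blank cells (3996 on array 1 and 1450 on array 2) and 7 cells holding the code -10000. Of the columns of values, 0 were left unused. Current symbols came from the annotation's gene identifiers, matched to the Release 6 plus ISO1 MT reference table, whose coordinates were not used. Of all features, 960 repeated unnamed ones were left out, found as places with no gene name in each of 24 blocks of 656. Array 2 was turned, each array was centred on the median of its own values, and 10912 probes with values on both arrays were fitted in R 4.3.3 by lmFit and eBayes of limma 3.58.1 (two-sided, 1 residual degree of freedom, adjusted p under 0.05). The fit was tested on simulated data with independent noise and no dye effect, so that test does not bear on the reading of direction. The eBayes step drew the spread of each probe towards that of all probes, with 4.35 prior degrees of freedom. The p-values and intervals thus rest on this pooled spread as well as on the probe's own spread. The number of arrays limits the precision.

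The members, lists and tests were chosen with earlier results of these data known. All members are named. Of each other hemocyte or cascade list, every gene is named where 8 or fewer were measured on both arrays, and otherwise at least the 3 highest and 3 lowest means. With 2 values a gene, no gene was ranked by likeness of pattern. Alternatives were the reading of direction, centring, the repeated features, probes measured on 1 array, a test without moderation, gene means and each array alone.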

Additional observations from a re-analysis of the deposited data

How the results depend on the processing

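The means of PPO1 ranged from 0.175 to 0.739 and those of PPO2 from 0.0185 to 0.366 over the alternatives run, and neither gene was called under any of them. In the reading by genotype these means were 0.282 and 0.0185, with array 2 on the negative side for both genes. That reading reversed Hml to 0.093, eater to -0.0385 and srp to 0.0085, and put Sr-CI at 0. It lowered the members positive on both arrays from 4 to 1. The difference of PPO1 and PPO2 from the plasmatocyte genes fell to 0.132, with opposite signs on the arrays. The arrays taken alone gave -0.145 to 0.041 for Hml and -0.274 to 0.203 for Spn27A, so the sides of these genes rest on 1 array. They gave 0.236 to 0.500 for the difference from plasmatocyte genes and 0.049 to 0.827 for the difference from Spn27A. The test without moderation called 19 probes in place of 0, Sr-CI among them. All 19 had identical values on both arrays, so that their SD was 0 and that test is void for them. The other fits called 0 probes. At an unadjusted p under 0.05 limma found 730 of 10912 probes, or 6.69%, as reported, and 533 to 874 under the alternatives, apart from 1. Keeping probes measured on 1 array gave 942, over a larger set that holds probes with no spread of their own. No centring, block centring and keeping the repeated features reversed no member. No paired analysis was possible because both arrays form 1 group. Signal over background is unknown, so how far dim spots limit these ratios could not be assessed.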

Other observations

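Clotting and opsonin genes of the hemolymph, another list of this tissue, lay near the median by their means. Of 8 genes, 5 were measured on both arrays, and the other 3 had no named probe. fon, the clot protein gene fondue, was negative on both arrays at -0.169 and -0.061. The transglutaminase gene Tg, which crosslinks the clot, had -0.035 and 0.039. The chitinase-like gene Idgf3 had -0.028 and 0.195, and the thioester protein genes Tep3 and Tep4 had means of -0.0055 and -0.0405. The list median was -0.0055, and limma called 0 of the 5 genes at an adjusted p under 0.05 and found 0 at an unadjusted p under 0.05.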
